A study of Mus musculus with 3 samples.

Results

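In every library of these mouse islets, some insulin-rich cells gave nearly all of their ferritin light chain reads to Ftl1-ps1, a gene copy that beta cells hardly use. They were selected on their own counts, as barcodes with at least 500 detected genes, at most 20% mitochondrial UMIs (unique molecular identifiers, the counted RNA molecules), at least 5 UMIs of Ftl1 and Ftl1-ps1 together, of which at least 50% were Ftl1-ps1, and at least 15% of UMIs from the insulin genes Ins1 and Ins2. The rule found 607 cells among the 24590 barcodes of the table, of which 11314 passed the filters on genes and mitochondrial UMIs. The control library held 185 of them, 4.33% of its 4270 filtered cells (95% Clopper-Pearson interval 3.74 to 4.99). The S961 library held 203, 5.79% of 3507 (5.04 to 6.61), and the recovered library 219, 6.19% of 3537 (5.42 to 7.04). Ftl1, Ftl1-ps1, Ins1, Ins2, the number of genes and the mitochondrial share are the measured values that the cells were chosen by. Those values, and all differences from classes cut by the same rule, are given as a description. The species of these cells is not settled by the counts, which were all made against the mouse genome, and the class is named here by its rule.

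The islets came from male C57Bl6/J mice, retired breeders 7 to 8 months old, that carried implanted pumps. Control pumps held no S961. S961 mice received this antagonist of the insulin receptor for 2 weeks at a labelled 20 nM per week, and recovered mice had the S961 pumps taken out afterwards. The labels give neither the length of recovery nor the number of mice behind a library, and the islets were cultured overnight before dissociation. With 1 library per group there was no replicate check, no test across animals was possible and no p-value was computed. Each ratio compares sums of UMIs scaled to the same total (CPM), and its exact conditional binomial 95% interval covers counting error only.

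Insulin-rich Ftl1-ps1-led cells are called led cells below. They were compared with 6399 beta cells, which met the same filters and the same insulin share but gave under 50% of their ferritin light chain UMIs to Ftl1-ps1. A second pair of classes had under 15% insulin UMIs: 214 insulin-poor led cells and 3149 other insulin-poor cells. Insulin-poor led cells held 62630 to 142622 CPM of 6 alpha cell markers and 30310 to 35568 CPM of 5 delta cell markers, so they mix cells of several hormones. The sums over led cells rest on 1342232, 2911478 and 2594986 UMIs (control, S961 and recovered, the order kept below), with median totals of 7095, 14341 and 10774 UMIs per cell against 7773, 14087 and 10598 in beta cells. The insulin-poor led cells were shallow, with 146862, 445791 and 276381 UMIs. The 3 libraries shared 51 barcode sequences, 1 of which was a led cell, and none was a led cell in more than 1 library.

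Ferritin is a shell of heavy chains, made from Fth1, and light chains, made from Ftl1, that stores iron. A processed copy such as Ftl1-ps1 arises when a spliced RNA is copied back into the genome, so it lacks introns and resembles its parent's messenger RNA. A sequenced 3′ tag is counted for the gene whose sequence it matches, and a tag from a near-identical copy, or from the same gene of another strain or species, can be counted for a copy instead of the gene itself. Beta cells make insulin and amylin (Iapp), sense glucose through Slc2a2 and glucokinase, and are held in their state by transcription factors such as Mafa and Pdx1.

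On GRCm38/mm10 with GENCODE M21, Ftl1 lies on chr7:45457944-45459884 (minus strand) and Ftl1-ps1 on chr13:74399694-74407346 (plus strand), where it is annotated as protein-coding and tagged as a retrogene. Both coding sequences have 552 bases and align without gaps, with 2 substitutions and 99.6% identity. Counted from the first coding base, with the Ftl1 base first, they are G468A and G504A. The last 120 coding bases are shown because they hold both substitutions, which are in capitals.
Ftl1: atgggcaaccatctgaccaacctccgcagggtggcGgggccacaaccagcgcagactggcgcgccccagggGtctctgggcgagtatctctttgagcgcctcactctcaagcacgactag
Ftl1-ps1: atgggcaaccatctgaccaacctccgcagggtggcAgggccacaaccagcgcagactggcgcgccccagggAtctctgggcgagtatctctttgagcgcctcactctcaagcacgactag

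Ftl1-ps1 stood at 2550 CPM in control, 3413 in S961 and 2716 in recovered led cells, against 70.6, 107 and 78.7 CPM in beta cells. Ftl1 stood at 221, 183 and 158 CPM in led cells and at 3740, 4176 and 3885 CPM in beta cells. The sum of both genes differed far less, with log2 ratios of led over beta cells of -0.46 in control, -0.25 in S961 and -0.46 in recovered. Those sums lay close to the median gene, whose log2 ratio was -0.51, -0.35 and -0.50 over 2222 tested genes. The single genes thus differed greatly and their sum little. The heavy chain gene Fth1, which took no part in the choice of cells, stood at 10380, 12907 and 11654 CPM in led cells and at 1162, 1241 and 1304 CPM in beta cells, 8.93 to 10.4-fold higher in every library.

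Among all insulin-rich cells with enough ferritin reads, the Ftl1-ps1 share had a peak at each end of the scale. It was under 5% in 5608 cells and at least 95% in 336. Just outside the threshold, from 40 to 50%, lay 6 cells, and just inside, from 50 to 60%, lay 10. Amylin RNA, which was not used in the choice, lay below the level of beta cells at high shares, though not in the order of the bins: cells under 5% held 89345 CPM of Iapp, the 6 cells from 40 to 50% held 17297, the 10 cells from 50 to 60% held 26656, and cells of at least 95% held 7695. Few cells lay between the peaks, and those held intermediate Iapp. Just inside the insulin threshold, from 15 to 20% insulin, there were 4 led cells with 183 CPM of Gad2 and 219 CPM of the glucagon gene Gcg. Just outside, from 10 to 15%, the 4 led cells held 151 CPM of Gad2 and 603 CPM of Gcg. The somatostatin gene Sst set these bins apart, at 16271 CPM just outside and 36.6 CPM just inside.

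**Figure D1:**
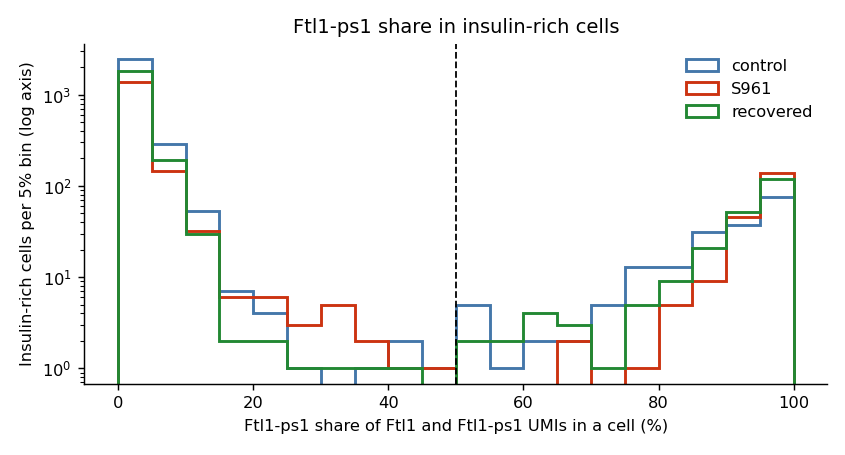
Ftl1-ps1 share of ferritin light chain UMIs (x axis, percent) against the number of insulin-rich cells per bin of 5% (y axis, log scale), 1 line per library. The dashed line is the threshold of 50%; in the 3 libraries together 6 cells lie just below it, from 40 to 50%, and 10 just above, from 50 to 60%.

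Insulin took a larger share of counted UMIs in led cells than in beta cells, and this share took part in choosing both classes. Insulin made up a median of 57.0% of UMIs per led cell in control, 54.2% in S961 and 57.0% in recovered, against 31.1, 35.0 and 31.5% in beta cells. CPM are shares of a total that includes insulin. With insulin, ferritin light chain and mitochondrial genes left out of the total, the median log2 ratio was 0.08, 0.11 and 0.07. Mitochondrial RNA made up a median of 1.37, 1.26 and 1.40% of UMIs, against 6.88, 4.40 and 7.21% in beta cells. Thinned to 2000 UMIs per cell, led cells showed a median of 567, 592 and 575 genes and beta cells 797, 766 and 806, with 12 led cells too shallow to enter.

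A gene was tested when it reached 50 CPM in led or beta cells in every library, and it is called higher or lower when it differed at least 4-fold the same way in all 3 libraries. Of 2222 tested genes, 59 were higher in led cells (2.66%) and 315 were lower (14.2%). With CPM computed without insulin, ferritin light chain and mitochondrial genes, the split was 146 higher and 361 lower. The insulin-poor classes then divided the calls. A gene has the shared pattern when insulin-poor led cells differ from other insulin-poor cells the same way, again at least 4-fold in every library. Its difference then goes with Ftl1-ps1 at both insulin levels. The insulin-poor classes also differed in cell mix. Gamma cell markers summed to 8289 to 27013 CPM in the led and 65056 to 78878 in the other class, acinar markers to 449 to 6397 and 1823 to 45124, and alpha cell markers to 62630 to 142622 and 49903 to 65799. Assignment of reads to a copy or an orthologue would leave the shared pattern, and so would a trait that all led cells share. The cell mix could add to it, and from these counts they cannot be told apart. The shared pattern held 30 higher genes (1.35%) and 83 lower genes (3.74%). A gene has the kind-of-cell pattern when it is higher in led cells than in both beta and insulin-poor led cells. It also has it when lower than in beta cells while insulin-poor led cells hold at least 50 CPM. Its reads were then counted in that class. RNA freed from other cells, or other cell types within the class, could supply them, which was not tested. That pattern held 5 higher genes (0.225%) and 45 lower genes (2.03%), 9 of which were also shared. The 45 include Ftl1 and 6 mitochondrially encoded genes, whose counts entered the choice of cells. The remaining 24 higher and 196 lower genes met neither definition, and the low depth of insulin-poor led cells limits how many genes could. Without the control library, which had the fewest UMIs in insulin-poor led cells, the shared lower genes numbered 129 and the higher kind-of-cell genes 8.

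**Figure D2:**
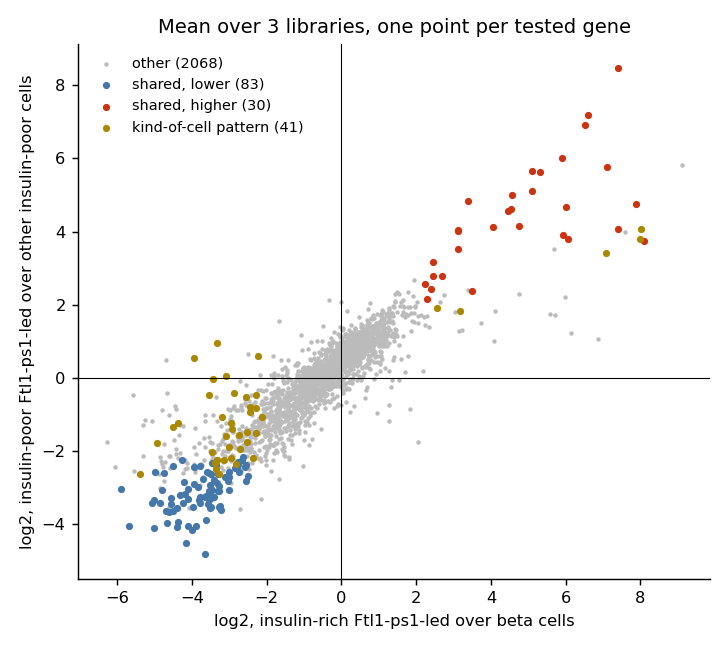
Each point is 1 of the 2222 tested genes, placed by its mean log2 ratio over 3 libraries in led over beta cells (x axis) and in insulin-poor led over other insulin-poor cells (y axis). The 30 shared higher genes (red) lie at the upper right, the 83 shared lower genes (blue) at the lower left, and ochre marks the 41 genes of the kind-of-cell pattern that are not shared.

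The shared higher genes were rich in copies. Of the 30, 15 (50%) have a near-identical partner, at least 85% identical over at least 150 of the last 1000 transcript bases, against 9.55% of all tested genes. The rule can also be met by a short stretch that unrelated genes share. An unnamed model among the 15 matched 32 other genes, the nearest over 151 bases, and whether these are its copies was not checked. The 15 include Ftl1-ps1 itself, which chose the cells. The sum with the nearest copy was not called for 12 of the 15, and the sum over all copies for 14. Rpl9-ps6 and Rpl9-ps1, each other's nearest copy, account for that difference. Where an abundant parent holds most of a family, an uncalled sum does not show that reads moved between copies. Rpl9-ps1, for example, held 82.7 of the 995 CPM of its family in control led cells. Among nearest copies, Rplp1 was higher in led cells (log2 0.47, 0.57 and 0.53) and Rpl13a lower (-1.41, -0.80 and -1.47). Some of the 15 belong to the same family and share its sum, such as Rpl9-ps6 and Rpl9-ps1. Rpl13a-ps1, a copy of the gene for ribosomal protein L13a, stood at 177, 202 and 156 CPM in led cells and 4.35, 6.53 and 4.85 in beta cells, while its parent Rpl13a stood at 28.3, 41.9 and 27.7 against 75.5, 72.9 and 76.8. Copy and parent thus differed in opposite directions, as Ftl1-ps1 and Ftl1 did, and the family sum kept a log2 ratio of 1.17 to 1.62. Rbm8a2, a copy of the exon junction gene Rbm8a, stood at 82.7, 96.5 and 97.1 CPM against 1.49, 1.64 and 1.49, and its family sum had log2 ratios of 0.74, 1.05 and 1.00. Rpl9-ps6, a copy of ribosomal Rpl9, stood at 399, 493 and 400 CPM against 46.1, 54.1 and 47.6, with a family sum from -0.24 to -0.09. Of the unnamed gene models, 3 are picked out here after their values were seen because their parents are well known. Gm10260, a copy of ribosomal Rps18, was at 268, 351 and 271 CPM against 2.33, 4.84 and 2.45, and its family sum was between 0.08 and 0.32. Gm11273, a copy of cytochrome oxidase gene Cox5b, was at 183, 219 and 195 CPM against 4.79, 5.84 and 4.59, and its family sum between 0.51 and 0.95. Gm10320, a copy of the translocon gene Sec61b, was at 264, 290 and 281 CPM against 13.0, 13.7 and 11.3, with a family sum from -0.56 to -0.17.

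**Figure D3:**
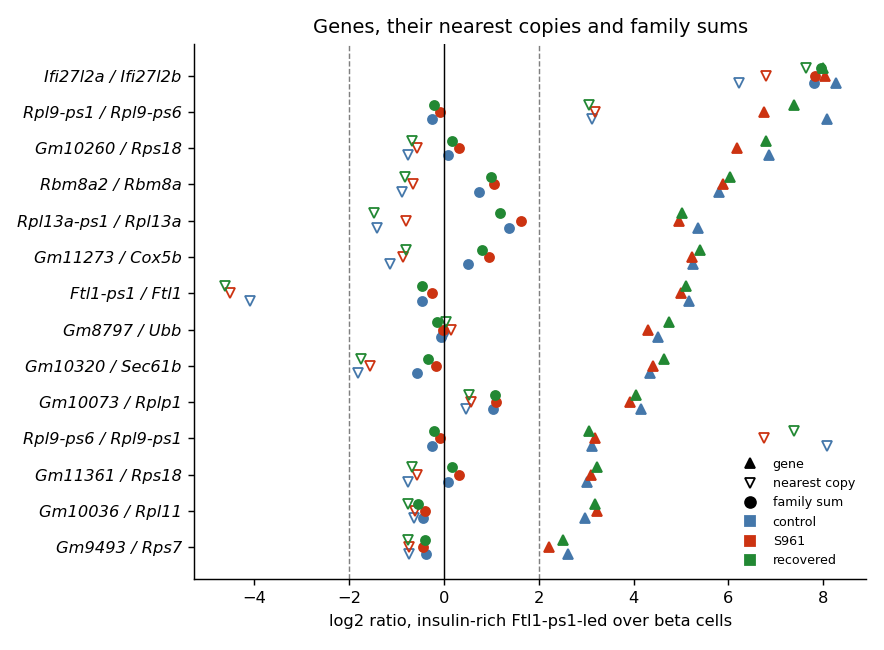
Log2 ratio of led over beta cells (x axis) for 14 shared higher genes with at most 5 copies (filled triangles), their nearest copy (open triangles) and the sum over all copies (circles), 1 colour per library; dashed lines mark 4-fold. The sums lie within the dashed lines for every row except Ifi27l2a, whose sum is at 7.80 to 7.96.

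Ifi27l2a, an interferon-inducible gene, was the exception. It stood at 189, 226 and 156 CPM in led cells and at 0.615, 0.865 and 0.612 CPM in beta cells, and the sum with its copy Ifi27l2b stayed 7.80 to 7.96 higher on the log2 scale. The other 15 shared higher genes have no such copy. Msln, which encodes mesothelin, a surface protein best known from mesothelium, was among them. Slc38a5, an amino acid transporter, stood at 291, 365 and 333 CPM in led cells and 1.93, 3.59 and 1.05 in beta cells, and at 163, 292 and 427 in insulin-poor led cells. Cst6, a cysteine protease inhibitor, was 6.36 to 16.1-fold higher than in beta cells. The peptidase genes Dpp7 (5.08 to 6.24-fold) and Dnpep (4.14 to 5.75-fold) differed least among the named genes of this pattern. These genes were thus counted at raised levels in led cells of both kinds, and their read assignment was not tested.

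The shared lower genes included genes that nearly every cell uses. Gapdh, the glycolytic enzyme often taken as a reference gene, stood at 65.6, 52.6 and 42.0 CPM in led cells against 1386, 1063 and 1170 in beta cells. It stood at 129, 92.0 and 83.2 CPM in insulin-poor led cells against 1238, 1278 and 1171 in other insulin-poor cells, so it was low in both kinds of led cells. At 2000 UMIs per cell, Gapdh was seen in 10.9, 7.04 and 5.63% of led cells and in 80.2, 76.1 and 76.7% of beta cells, and unthinned in 31.4, 42.9 and 27.4% against 96.7, 94.2 and 97.6%. Pkm, the pyruvate kinase of the same pathway, was 7.03 to 9.19-fold below beta cells, Pebp1, a kinase inhibitor, 18.3 to 34.8-fold, and Creg1, a secreted lysosomal glycoprotein, 24.7 to 42.2-fold. H2-K1, the mouse class I antigen-presenting chain, stood at 35.8, 16.1 and 37.0 CPM against 543, 444 and 515. Srp9 of the signal recognition particle, the cargo receptor Tmed3 and the respiratory chain assembly gene Cox7a2l lay 8.41 to 16.8-fold below. The stress-induced gene Nupr1 stood at 99.8, 83.5 and 92.9 CPM against 743, 1550 and 1049. Of the 83 shared lower genes, 14 (16.9%) have a near-identical partner in the mouse by the same rule, Ftl1, which helped to choose the cells, among them. Tmem234, also among the 14, matched 49 genes, the nearest over 180 bases, and whether these are its copies was not checked. The nearest copy of Gapdh was at 0 CPM in led cells of every library. Reads that match no mouse gene are not in the table, and their number was not analysed here.

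Most genes of basic cell machineries stayed under the 4-fold limit. None of 71 tested nuclear respiratory chain genes, 30 proteasome genes or 25 endoplasmic reticulum chaperone genes was called in either direction, where 2.66% and 14.2% of all tested genes were. Their median log2 ratios were -0.14, 0.18 and -0.06 for the respiratory chain, 0.23, 0.55 and 0.37 for the proteasome and -0.61, 0.28 and -0.21 for the chaperones. Of 82 cytosolic ribosomal protein genes, 78 were not called and 4 were lower (4.88%): Rpl21, Rpl29, Rpl38 and Rps2. Rpl29 stood at 11.9, 12.0 and 17.0 CPM against 299, 374 and 315, whereas the list's median log2 ratio was -0.27, -0.22 and -0.31. Single genes of a complex, such as Rpl29, were thus nearly uncounted beside partners at beta cell levels. By the length of the 3′ untranslated region, 9.29% of genes up to 332 bases were lower, 18.6% from 333 to 971, 16.4% from 973 to 2250 and 11.1% above.

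Mitochondrially encoded RNA was lower, and unevenly so; its total took part in choosing the cells through the limit of 20%. Of 11 tested genes 7 were lower (63.6% against 14.2% of all tested genes), with a list median of -3.09, -2.40 and -3.38. The complex I genes mt-Nd5 and mt-Nd4 stood 7.26 to 12.8-fold and 6.38 to 13.8-fold below beta cells, and mt-Co1, a core subunit of cytochrome oxidase, 6.15 to 11.4-fold. The cytochrome b gene mt-Cytb stood only 1.36 to 1.90-fold below and mt-Co2 1.80 to 2.66-fold. Genes of the same circular genome thus differed by unequal amounts. Long non-coding RNAs were also low: of 11 tested genes annotated as such, 7 (63.6%, against 14.2% of all tested genes) were lower and none higher. Neat1, the scaffold of paraspeckles, stood 9.01 to 13.5-fold below beta cells, the imprinted Meg3 4.60 to 5.94-fold and Kcnq1ot1 8.92 to 11.4-fold. Malat1, an abundant nuclear RNA, stood at 1951, 2472 and 2300 CPM against 8771, 9610 and 8893 and was not called, at 3.87 to 4.50-fold below.

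The genes that set the led cells apart from beta cells and from insulin-poor led cells alike were Gad2, Gad1, Crispld1, Anxa10 and Ppp1r1a, and none of the 5 has a near-identical copy. Gad2 on chr2:22622205-22693874 encodes GAD65, one of the enzymes that make the transmitter GABA and an autoantigen in type 1 diabetes. It stood at 184, 221 and 182 CPM in led cells, 0.439, 1.99 and 0.481 in beta cells, and in insulin-poor led cells at 0, 4.49 and 0 CPM. Every value in led cells lay above those of beta and insulin-poor led cells, and the ratio to beta cells was 111 to 419. Gad1, which encodes the other GABA-making enzyme GAD67, stood at 232, 355 and 259 CPM against 32.8, 22.6 and 38.7 in beta cells. Every led cell sum lay above every beta cell sum. Ppp1r1a, an inhibitor of protein phosphatase 1 that mouse beta cells also express, was 4.69 to 8.90-fold higher. Crispld1, a secreted protein gene, stood at 81.2, 94.1 and 100 CPM against 0.307, 0.865 and 0.175, and Anxa10, a member of the annexin family, at 107, 87.6 and 118 against 0.702, 1.64 and 0.393. In the list of 16 genes of GABA and monoamine metabolism, 5 were tested, 2 were higher (the GAD genes, 40% against 2.66% of all tested genes) and 1 was lower (20% against 14.2%): Ddc, the decarboxylase of serotonin and dopamine synthesis, 11.2 to 13.9-fold below beta cells. Gad2 was already known as a marker of these cells from earlier results of these data, so the higher share is a description only.

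The other marker genes did not meet that definition in every library. Trh on chr6:92242061-92244650 encodes the precursor of thyrotropin-releasing hormone, known in islets mainly from early life. It stood at 357, 581 and 314 CPM in led cells against 0.439, 1.86 and 0.481 in beta cells. In insulin-poor led cells it stood at 252, 0 and 0 CPM, and 34 of the 37 UMIs in control came from 1 cell; without that cell the control level was 21.5 CPM. Npy on chr6:49822710-49829507 encodes neuropeptide Y, seen in immature beta cells. It stood at 188, 139 and 177 CPM in led cells, 1.27, 3.33 and 4.28 in beta cells and 136, 17.9 and 28.9 in insulin-poor led cells. Msln on chr17:25748613-25754378 was highest, at 1256, 998 and 1237 CPM against 6.98, 10.1 and 8.57 in beta cells, and insulin-poor led cells held 470, 554 and 525 CPM. Msln therefore lies 99.0 to 180-fold above beta cells, and it is shared by both kinds of led cells. Of the other mesothelial markers fixed for the check of cell types, Upk3b and Wt1 were at 0 in led cells of every library, and the keratin gene Krt19, which ductal cells also express, stood at 0.922, 4.54 and 2.45 CPM in beta cells and 22.6, 5.82 and 6.14 times as high in led cells.

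**Figure D4:**
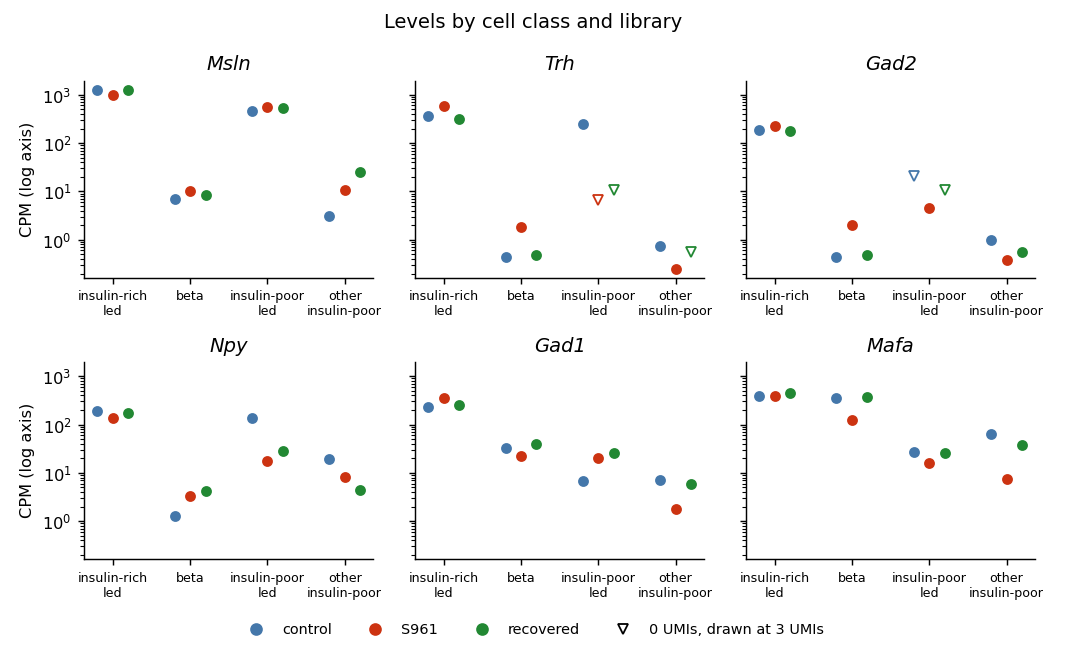
Level in CPM (y axis, log scale) of 6 genes in 4 cell classes (x axis), 1 point per library; open triangles mark 0 UMIs and are drawn at 3 UMIs. Gad2 and Gad1 are high in insulin-rich led cells alone among the 4 classes, Msln is high in both led classes, and Mafa lies at 387 to 442 CPM in insulin-rich led cells and at 125 to 369 CPM in beta cells.

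Beta cell genes ranged from levels above those of beta cells to levels far below. Of 23 tested genes in a list of 30 for beta cell identity, 1 was higher (Ppp1r1a, 4.35% against 2.66% of all), 6 were lower (26.1% against 14.2%) and 16 were not called, with a list median of -1.41, -1.31 and -1.50. The transcription factor Mafa stood at 387, 396 and 442 CPM in led cells and at 354, 125 and 369 in beta cells. Pdx1 stood at 197, 202 and 212 CPM against 111, 73.0 and 108, and Neurod1 at 292, 253 and 306 against 129, 125 and 134. The glucose transporter gene Slc2a2 stood at 192, 196 and 216 CPM against 97.5, 42.1 and 118. None of these was called, and all of them were at least as high as in beta cells in every library. Others lay between and were not called: the sulfonylurea receptor gene Abcc8 stood at 72.3, 77.3 and 75.9 CPM against 288, 290 and 309, and the granule zinc transporter gene Slc30a8 at 47.7, 45.0 and 49.7 against 265, 171 and 356. The lower genes were Iapp, G6pc2, Mlxipl, Papss2, Entpd3 and Nkx2-2. Iapp stood at 10874, 7799 and 8150 CPM against 92213, 87973 and 85798, and G6pc2, the islet glucose-6-phosphatase, at 20.1, 5.84 and 12.3 CPM against 387, 327 and 438. Mlxipl, which encodes the glucose-responsive factor ChREBP, lay 9.69 to 11.2-fold below, and Nkx2-2 4.05 to 5.19-fold. Ucn3, a marker of mature mouse beta cells, stood at 29.8, 26.8 and 28.9 CPM against 95.7, 84.3 and 135 and was not called. Only Iapp of these lower genes met the kind-of-cell definition, at 12951, 2387 and 6581 CPM in insulin-poor led cells. Insulin made up 4.47, 0.668 and 2.13% of UMIs in that class and 3.87, 1.06 and 2.25% in other insulin-poor cells. Whether the Iapp reads there came from the cells' own RNA or from free RNA was not tested. For the other 5, absence of the RNA and absence of matching reads cannot be told apart.

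Secretory granule genes differed in both directions. Of 22 tested, 19 were not called, 1 was higher (4.55% against 2.66% of all tested genes) and 2 were lower (9.09% against 14.2%). The autoantigen gene Ica1 was higher (4.36 to 5.02-fold), and Chga (6.10 to 8.98-fold) and Rab3a (6.16 to 6.40-fold) were lower. Chga, which encodes the granule protein chromogranin A, stood at 679, 712 and 562 CPM in led cells, 4147, 5053 and 5050 in beta cells and 1718 to 2220 in insulin-poor led cells. The convertase gene Pcsk1, which processes proinsulin, stood at 244, 272 and 267 CPM against 234, 203 and 229. Among the genes not called, Scg5 had log2 ratios of 1.34, 0.79 and 1.30 and Resp18 1.27, 1.30 and 1.26, while Vgf had -2.41, -1.98 and -2.89 and Chgb -1.31, -2.45 and -1.26. Of 10 tested neuropeptide genes, Npy and Trh, both markers known beforehand, were higher (20% against 2.66% of all tested genes). The 4 lower genes (40% against 14.2%) were Sst, Pyy, Iapp and Pdyn, with prodynorphin gene Pdyn at 16.4, 0.343 and 5.78 CPM against 351, 186 and 228. Unthinned, Sst was seen in 22.2, 26.1 and 26.9% of led and 28.1, 25.9 and 25.8% of beta cells. Pyy was seen in 59.5, 49.8 and 58.0% against 60.9, 48.8 and 56.0%. Thinned to 2000 UMIs, both shares were lower in led cells in every library. Single beta cells held up to 446, 963 and 1028 Sst UMIs and 575, 2354 and 920 Pyy UMIs, which raises the beta cell sums. The lower kind-of-cell genes with the largest differences were Spp1, which encodes the secreted phosphoprotein osteopontin (23.5 to 65.1-fold), the paired membrane protein genes Tmem176b (21.9 to 41.3-fold) and Tmem176a (21.4 to 23.3-fold), and lipoprotein lipase Lpl (16.7 to 24.9-fold). Insulin-poor led cells also held 361 to 557 CPM of 5 macrophage markers and 323 to 409 CPM of 5 stellate or fibroblast markers. Whether such cells supplied the reads that place these genes in the pattern was not tested. Qsox1, a sulfhydryl oxidase, stood at 3.73, 5.84 and 3.47 CPM in led cells but at 54.5, 74.0 and 109 in insulin-poor led cells, above other insulin-poor cells at 46.5, 53.0 and 55.5. Serpina10 showed the same arrangement, at 13.4, 16.5 and 14.6 CPM in led cells and 157, 258 and 116 in insulin-poor led cells. Both genes were thus counted in insulin-poor led cells at or above the level of other insulin-poor cells, and hardly in insulin-rich led cells.

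Outside these definitions, Gnas, which encodes the stimulatory G protein alpha subunit, stood at 11482, 11847 and 11974 CPM in led cells against 954, 1398 and 1045 in beta cells. Insulin-poor led cells held 10997 to 19021 CPM. Lgals3, which encodes the sugar-binding protein galectin 3, stood at 252, 277 and 278 CPM against 1.89, 6.83 and 0.961. Of 13 iron genes 5 were tested, and Fth1 was higher (20% against 2.66% of all tested genes), with none lower. Of 6 tested genes in a list for immature or dedifferentiated beta cells, Npy, a marker known beforehand, was higher (16.7% against 2.66% of all tested genes). Chga and Rbp4, the plasma retinol carrier, were lower (33.3% against 14.2%).

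Genes that mark sex, and Nnt, which is altered in the labelled strain, are described here. The labels describe all mice as male, and Xist, which is transcribed from the inactive X of females, was at 0 UMIs in led cells of every library. The Y-linked Ddx3y stood at 38.7, 31.6 and 33.1 CPM in led cells and 55.1, 48.4 and 55.6 in beta cells, and Eif2s3y at 30.5, 37.8 and 35.5 against 53.0, 35.6 and 46.7. Kdm5d stood at 13.4, 12.0 and 10.8 against 12.5, 12.2 and 17.1, and Uty lay below beta cells in each library, at 8.94, 9.96 and 8.09 against 20.1, 18.4 and 23.7. Reads of all 4 Y-linked genes were thus counted in both classes. Nnt, of which the C57BL/6J strain is known to lack several exons, was at 0, 0 and 0.385 CPM in led cells and 3.73, 2.47 and 2.93 in beta cells. Neither class reached the 50 CPM needed for a call, and the strain cannot be read from these counts.

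Led cells varied among themselves in their marker genes. At 2000 UMIs per cell, Msln was seen in 72.1% of control led cells (65.0 to 78.5), 65.3% in S961 (58.3 to 71.9) and 68.1% in recovered (61.4 to 74.3), against 1.05, 0.803 and 1.08% of beta cells. Unthinned, single beta cells held up to 23, 35 and 18 Msln UMIs, so the beta cell share is not a measure of free RNA alone. Gad2 was seen in 27.9, 27.1 and 29.1% of led cells and in 0.0362, 0.201 and 0.148% of beta cells. Trh was seen in 27.3, 32.2 and 32.4%, against 0.0724, 0.268 and 0%, where 0 allows up to 0.148%. Npy was seen in 19.7, 20.6 and 20.7%, against 0.217, 0.402 and 0.493%. Unthinned, the shares in led cells were 84.3, 82.8 and 87.7% for Msln, 55.7, 63.5 and 65.8% for Gad2, 46.5, 53.2 and 56.2% for Trh, and 36.8, 36.9 and 38.8% for Npy. The Msln intervals of the 3 libraries overlapped at equal depth. Trh and Npy were concentrated in few cells: the 10% of cells with the most UMIs of a gene gave 70.4, 70.5 and 63.7% of Trh UMIs and 71.0, 68.8 and 71.2% of Npy UMIs. Msln (31.9, 39.2 and 30.0%) and Gad2 (41.9, 47.4 and 36.0%) were spread more widely.

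Summed markers of most other cell types were low in led cells. The mesothelial sum was an exception, at 1277, 1025 and 1252 CPM against 7.90, 14.6 and 11.1 in beta cells, mostly from Msln. The 5 acinar markers summed to 64.1, 238 and 135 CPM, against 65.9, 1247 and 138 in beta cells, and the 5 delta markers to 183, 116 and 285 against 1199, 1692 and 1637. The 6 alpha markers summed to 315, 1357 and 1380 CPM against 813, 2304 and 1030, higher than in beta cells in the recovered library. Single led cells gave 2902 of 3256 Gcg UMIs in S961 and 2704 of 3067 in recovered. Without them Gcg stood at 123 and 141 CPM, so the higher sum in recovered rests on 1 cell. All 4 T or NK cell markers were at 0 in every library. The 5 endothelial, 5 stellate and 5 macrophage markers summed to at most 4.12, 1.72 and 6.53 CPM. Doublet calling with Scrublet marked 3 led cells in S961, 7 in recovered and 0 in control, where it marked 3 of 4270 cells and so did not work.

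The count of genes that differed between libraries was small in both classes. For S961 over control, 13 of 1635 genes that reached 50 CPM passed 2-fold in led cells (0.795%), 11 higher and 2 lower, against 36 of 2338 in beta cells (1.54%) and 37 of 2400 (1.54%) with beta counts thinned to the led cells' totals. For recovered over S961 the counts were 15 of 1641 (0.914%), 31 of 2346 (1.32%) and 33 of 2390 (1.38%). For recovered over control they were 4 of 1564 (0.256%), 5 of 2336 (0.214%) and 6 of 2424 (0.248%). Each library enters more than 1 of these contrasts, and the difference between classes was not tested. The counts for S961 over control were 40 in led and 48 in beta cells with insulin, ferritin light chain and mitochondrial genes left out of the total, and 79 and 43 in cells thinned to 2000 UMIs. The order of the classes thus differs between these settings, and the cause was not tested.

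An earlier description of these libraries named 14 genes because they differed in beta cells, so a larger ratio there than in another class follows from the choice. The 8 that reached 50 CPM in both classes are given side by side. Mafa went from 354 to 125 CPM in beta cells, a log2 ratio of -1.50 (-1.56 to -1.44), and from 387 to 396 CPM in led cells, 0.03 (-0.12 to 0.19). Slc2a2 had a ratio of -1.21 (-1.32 to -1.10) in beta cells and 0.03 (-0.19 to 0.24) in led cells. Gpx3, the secreted glutathione peroxidase, went from 14.0 to 242 CPM in beta cells, 4.12 (3.95 to 4.28), and from 70.0 to 50.5 CPM in led cells, -0.47 (-0.86 to -0.08). The granins Scg2 and Chgb had ratios of 1.06 and 0.96 in beta cells and 0.13 and -0.18 in led cells. The metallothionein gene Mt2 had -1.77 in beta cells and 0.13 (-0.21 to 0.48) in led cells. The chaperone gene Hspa5 had -0.48 (-0.50 to -0.45) and 0.36 (0.29 to 0.42). The intervals of these 7 genes lay apart between the classes, which come from the same libraries. They cover counting error only and the genes were chosen for differing in beta cells. The share of all tested genes with intervals apart is not given here, so nothing is concluded from the 7. The p21 gene Cdkn1a stood at 4.47, 2.06 and 2.70 CPM in led cells, from 6, 6 and 7 UMIs, and at 71.0, 159 and 73.3 CPM in beta cells; being a shared lower gene, it was too low in led cells for a ratio between libraries to be read.

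**Figure D5:**
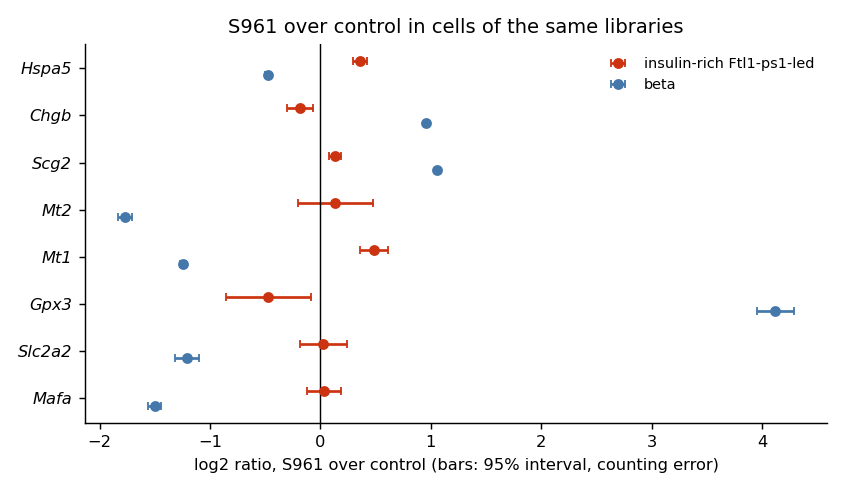
Log2 ratio of S961 over control (x axis) for the 8 genes with at least 50 CPM in both classes, in led cells (red) and beta cells (blue); bars are 95% intervals of counting error. Led cells lie between -0.47 and 0.48 and beta cells between -1.77 and 4.12.

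In recovered over S961, Mafa had a log2 ratio of 1.56 in beta cells and 0.16 (0.04 to 0.28) in led cells, and Slc2a2 1.48 and 0.14 (-0.03 to 0.31). Gpx3 had -2.16 in beta cells and 0.28 (-0.05 to 0.61) in led cells. The metallothionein genes had ratios farther from 0 in led cells, -1.03 for Mt1 and -1.10 for Mt2, than in beta cells, 0.37 and 0.83. In recovered over control, Mafa, Slc2a2, Scg2, Chgb and Hspa5 had ratios between -0.00 and 0.19 in led cells, Gpx3 had -0.19 (-0.57 to 0.19), Mt1 -0.54 (-0.69 to -0.40) and Mt2 -0.97 (-1.37 to -0.56, against -0.94 in beta cells).

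The genes that did differ most between libraries in led cells were partly those of other pancreatic cells. For S961 over control, the trypsinogen genes Try5 (log2 3.71) and Prss2 (2.65), glucagon gene Gcg (2.66), the alpha-rich Ttr (2.38) and the fibrinogen chain gene Fgb (1.80) were highest. Try5 and Prss2 had ratios of 4.89 and 3.78 in beta cells, and the acinar marker sums above moved the same way. In Gcg, 2902 of the 3256 UMIs in S961 and 2704 of the 3067 in recovered came from 1 cell each; without those cells led cells held 175, 123 and 141 CPM. A single cell also gave 163 of 203 Ttr UMIs in S961 and 198 of 320 Sst UMIs in recovered, and without it Sst stood at 47.3 CPM there. Fgb rested on more cells: 33 of 185 in control, 65 of 203 in S961 and 46 of 219 in recovered held it, at 83.4, 290 and 100 CPM, and without the fullest cell of each at 66.6, 222 and 82.8. Among the lowest were Ppy (-1.20), the ribosomal Rpl38 (-1.14), Pyy (-0.76) and Iapp (-0.48, from 10874 to 7799 CPM, against -0.07 in beta cells). For recovered over S961, the immediate early gene Jun (-1.93), Cebpd (-1.36), a stress-induced transcription factor, and Fgb (-1.53) were lowest. Jun had -1.12 and Cebpd -0.23 in beta cells.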

How the data were processed

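Single-cell RNA from mouse islets was counted in 3 droplet libraries (10x Genomics 3′ chemistry, per the labels). The deposited values are counts: whole UMIs of 31053 genes in 24590 barcodes, from Cell Ranger (no version) on mm10, per the submitters' processing notes; no barcode held under 500 UMIs, and each was assigned to its library by the labelled suffix. The members, lists and rules were chosen with earlier results of these data known.

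UMIs were summed per class and library and scaled to CPM. Intervals are exact conditional binomial or Clopper-Pearson (95%, counting error only). A ratio with 0 UMIs used a floor of 3 UMIs. Called genes differed at least 4-fold the same way in 3 libraries and reached 50 CPM; between libraries, 2-fold. Doublets were called with Scrublet in scanpy 1.11.5 and kept, and left out as an alternative. Symbols were matched to GENCODE M21 (30464 of 31053). Copies were found with BLAST 2.17.0 and Biopython 1.88 among GENCODE transcripts; UMIs of near-identical copies can be split between them by the counting. Python 3.11.15, numpy 2.4.6, scipy 1.17.1, pandas 2.3.3 and matplotlib 3.10.9 were used. The calling was tested on simulated counts of the 31053 genes: 100 of 100 genes raised 8-fold and 100 of 100 lowered 8-fold were recovered with 0 false calls, and as shared patterns 100 and 82. All 4 classes were drawn from beta cell sums with counting error alone, and the changed genes held at least 50 CPM. Cell mix, free RNA and spread between cells were left out, so false calls from those could not appear.

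Named genes were Ftl1, Ftl1-ps1, the insulin genes, Iapp and the markers; the 10 highest and 10 lowest kind-of-cell genes by the ratio nearest 0; the 10 most abundant shared genes each way, without unnamed models; list members with large ratios and key genes; and between libraries 14 genes of an earlier description of these beta cells plus the 5 highest and 5 lowest by the interval bound nearest 0. Copies and parents in the pair results, Gnas, Lgals3, Neurod1, Pcsk1, Rpl29, Krt19, Abcc8, Slc30a8, Scg5, Resp18, Vgf, Kdm5d and Uty, and 3 unnamed models were named after their values were seen. Some items that the rule names are not reported here.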

Additional observations from a re-analysis of the deposited data

Results flagged for a closer look

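Barcodes outside the filters held the same signature in the S961 library. Of its 2398 removed barcodes, 30 had at least 50% Ftl1-ps1 among at least 5 ferritin light chain UMIs and at least 15% insulin UMIs (1.25%, 0.846 to 1.78), against 3 of 6610 in control and 1 of 4268 in recovered. Only 4 of the 30 were removed for mitochondrial UMIs.

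Some genes had ratios of opposite sign in led and beta cells of the same libraries. With 1 library per group these differences were not tested. For S961 over control, Mt1 had a log2 ratio of 0.48 in led cells and -1.24 in beta cells, Ppy -1.20 and 0.66, and Pyy -0.76 and 0.74. For recovered over S961, Mt1 had -1.03 and 0.37, Mt2 -1.10 and 0.83, Ppy 1.40 and -0.86, and Pyy 0.91 and -0.38. For recovered over control, Id3, a transcriptional inhibitor, had 1.33 in led cells and -0.73 in beta cells. In the recovered library 1 led cell gave 243 of 560 Ppy UMIs and 1 gave 184 of 398 Pyy UMIs; without the fullest cell of each library, Ppy stood at 167, 80.6 and 123 CPM in control, S961 and recovered led cells and Pyy at 133, 53.1 and 83.1.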

How the results depend on the processing

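Counts moved by over 1.5 times under these settings; the cause was not tested. With CPM without insulin, ferritin light chain and mitochondrial genes, 146 genes were higher (59 above), 49 shared higher and 20 kind-of-cell higher, and led cells passed 2-fold in 40 (S961 over control), 26 (recovered over S961) and 30 genes (recovered over control). At a minimum of 20 CPM, 105 were higher, 856 lower, 48 and 138 shared, and 171 kind-of-cell lower; with no minimum, 312, 1829, 67, 148 and 830. At 8-fold, 38 were higher, 134 lower, 14 shared lower, 1 kind-of-cell higher and 13 kind-of-cell lower. In cells thinned to 2000 UMIs, led cells passed 2-fold in 79, 64 and 53 genes; recovered over control gave 7 at Ftl1-ps1 shares of 80% and 20%, 7 with at least 10 ferritin UMIs and 8 by each cell's mean CPM (4 above). At least 10 ferritin UMIs left 50 shared lower and 3 kind-of-cell higher genes, and 25% insulin 3. Without the control library, 129 were shared lower and 8 kind-of-cell higher. With at least 5000 UMIs per cell, chosen after seeing the data, 15, 13, 1 and 23 genes met the 4 patterns. Signs turned for Sst in recovered led over beta cells at 25% insulin (0.40) and Aldh1a3 in thinned cells (0.31). Of 2964 single-gene values, 2403 moved by less than counting error. No paired analysis was possible because the result comes from no test and each group has 1 library. Insulin-poor led cells, at 146862 UMIs in control, limit both patterns.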
